A study of Arabidopsis thaliana with 6 samples.

Results

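The class III peroxidases PRX1 to PRX60 are the first 60 of the 73 Arabidopsis thaliana loci of this family, numbered along the chromosomes, and they were followed here among 32833 loci with a line in the deposited counts. Transcripts were summed per locus, and all 60 loci were kept whatever their values. Whole seedlings of the Columbia genotype were used. Ethylene seedlings germinated for 3 d in darkness with 0.7 ppm ethylene and then grew for 5 d in light without the gas. Air seedlings went through the same dark and light periods without ethylene at any stage. Each group had 3 libraries, and the question put to them is what an early exposure to ethylene leaves behind in the transcripts of older, light-grown seedlings. The family was selected on log2 fold changes and test results of this same contrast. How many of its members passed the test, and which way they moved, is therefore a description and not independent evidence about the family.

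Class III peroxidases are secreted, haem-containing enzymes of plants. In the cell wall they use hydrogen peroxide to oxidise phenolic compounds, which joins monolignols into lignin and cross-links structural proteins such as extensins, and under other conditions they produce reactive oxygen species that loosen walls or take part in defence. Single members are known for work in the endodermal barrier of the root, in xylem, in root hairs, in seed coats and in the oxidative burst. No sequence is printed, because the genome build behind the counts is not given in the sources used here.

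Plant counts were 14805466, 15973885 and 17116359 in ethylene replicates 1 to 3, and 15278372, 12870604 and 14038341 in air replicates 1 to 3. Levels are given in CPM, plant counts scaled to library size with edgeR's TMM factors, and 1 count equals 0.0554 to 0.0819 CPM. Ethylene and air libraries fell apart on the first principal component (64.7% of the variance), where air replicate 3 was farthest from the ethylene libraries. With the 92 synthetic spike-in RNAs as the scale in place of TMM, the median over all tested loci was at a log2 fold change of 0.47, against 0.02 with TMM. Changes below are therefore relative to the bulk of the other transcripts.

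Most peroxidases with a measurable change had more transcript after ethylene, and the few with less included PRX12 and PRX31, which are among the 6 most abundant members by the mean of all libraries. Of the 60 loci, 41 had enough counts to be tested and 19 did not. At an adjusted p under 0.05 (edgeR's quasi-likelihood test, with Benjamini-Hochberg adjustment over all 17887 loci tested), 18 of the 41 were higher after ethylene, 5 were lower and 18 did not pass. Among all tested loci, 15.8% were higher and 16.8% were lower, 32.6% in all. The median log2 fold change, ethylene over air, was 0.45 over the 41 tested members. Because the whole seedling was sampled, fewer cells of a type and less RNA per cell cannot be told apart. The adjusted p values of the 18 ran between 0.00055 and 0.049, and those of the 5 between 9.2e-05 and 0.036. The change was 2-fold or more in 9 of the loci that were higher and 3 of those that were lower. With spike-in scaling 28 members were higher and 3 lower, against 40.0% and 4.63% of all tested loci. The 3 ethylene libraries lay apart from the 3 air libraries in 23 of the 41 tested members, above them in 19 and below them in 4. Over all tested loci the shares were 47.7% in either direction, 23.9% above and 23.8% below. Of the 23 members past the test, 22 showed such separation, and PRX5 did not.

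**Figure D1:**
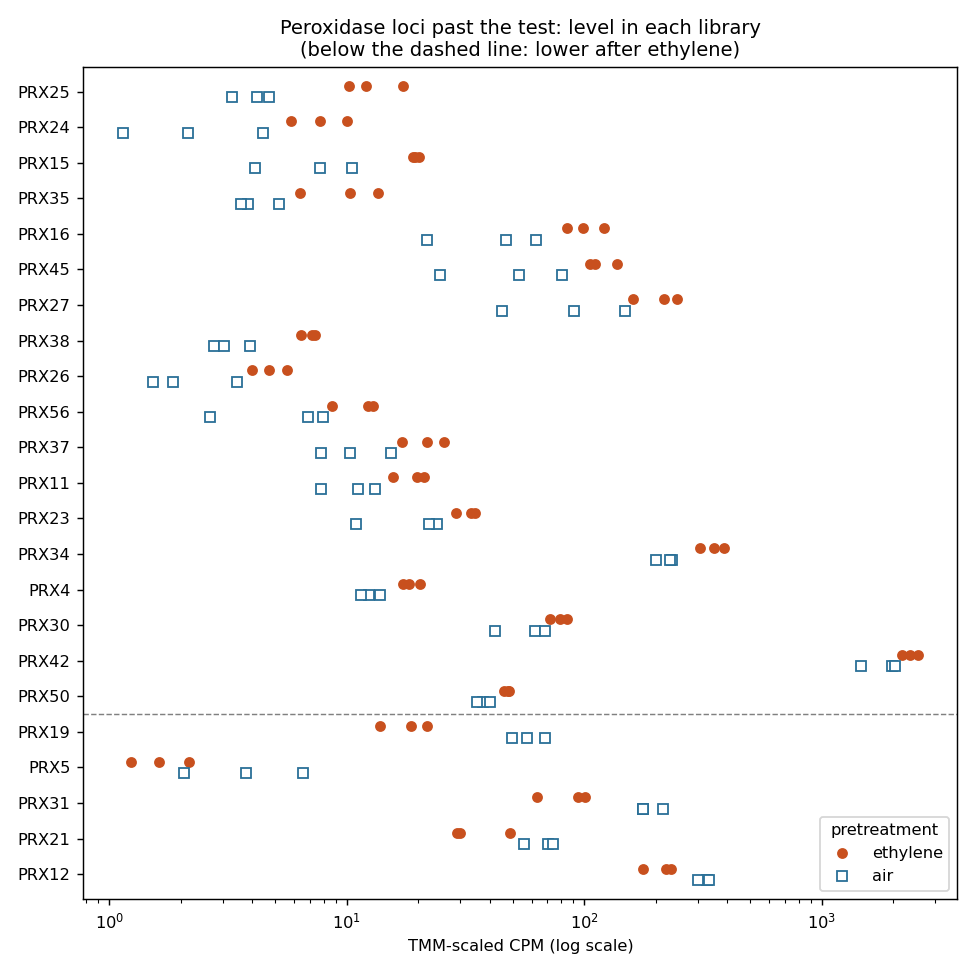
Level of each of the 23 peroxidase loci past the test, in TMM-scaled CPM on a log axis, with 1 filled point per ethylene library and 1 open square per air library. Loci below the dashed line were lower after ethylene, and PRX5 is the only locus shown whose groups overlap.

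The summed level of all 60 loci was 4527, 4898 and 4381 CPM in ethylene libraries, and 3935, 4193 and 3043 CPM in air libraries. The means were 4602 ± 267 CPM after ethylene and 3724 ± 604 CPM after air (SD, n = 3 each), and the groups did not overlap, with air replicate 3 lowest. A single member, PRX42 (AT4G21960, also named PRXR1), held 48.3, 51.8 and 53.7% of that sum in ethylene libraries and 50.2, 48.7 and 47.9% in air libraries. Without PRX42 the sum was 2339, 2361 and 2026 CPM in ethylene libraries, against 1961, 2149 and 1585 CPM in air libraries, where air replicate 2 lay above ethylene replicate 3.

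Per kilobase of coding length, which ranged from 933 to 1215 bases over the 60 loci, PRX42 averaged 2377 CPM after ethylene and 1838 CPM after air, far above the next member. PRX32 (AT3G32980) followed with 402 CPM per kilobase after ethylene and 339 after air, then PRX34 with 328 and 208. PRX12 (AT1G71695) had 195 CPM per kilobase after ethylene and 298 after air, so that it ranked below PRX34 in ethylene seedlings and above it in air seedlings. By the mean over all 6 libraries, the next places were held by PRX27 (AT3G01190), with 215 CPM per kilobase after ethylene and 97.9 after air, and PRX31 (AT3G28200), with 90.5 after ethylene and 199.5 after air. After ethylene alone PRX31 stood below PRX45 (121 CPM per kilobase), PRX3 (120.1), PRX16 (105) and PRX22 (103).

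These 6 abundant loci did not move together. PRX42 had 2188, 2537 and 2354 CPM in ethylene libraries, against 1974, 2044 and 1458 CPM in air libraries. Its 3 ethylene values were all above its air values, but air replicate 2 came close to ethylene replicate 1. The log2 fold change was 0.37 ± 0.12 (SE; edgeR adjusted p = 0.042), and the call held in 1 of the 6 fits that each left out 1 library, the one without air replicate 2. PRX32 had 466, 431 and 379.7 CPM after ethylene and 377, 422 and 277 CPM after air. The groups overlapped, and its log2 fold change of 0.25 ± 0.14 did not pass (edgeR adjusted p = 0.21). PRX27 had 245, 217 and 161 CPM in ethylene libraries, and 90.7, 148 and 45.1 CPM in air libraries. Its libraries were spread widely in both groups, from air replicate 3 at the bottom to ethylene replicate 1 at the top. PRX27 rose by a log2 fold change of 1.13 ± 0.33, a call that was lost in the fits without ethylene replicate 1, ethylene replicate 2 or air replicate 1 and with DESeq2 (adjusted p = 0.058).

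Peroxidases with known work in lignified tissue were mixed. PRX25 (AT2G41480), which takes part in stem lignification, had 12.0, 17.3 and 10.3 CPM in ethylene libraries, against 4.69, 4.18 and 3.28 CPM in air libraries. Every ethylene library held more than 2 times the level of any air library. PRX25 had the largest rise of the tested members, at 1.70 ± 0.24 on the log2 scale (edgeR adjusted p = 0.00055), and kept its call in all 14 other settings. PRX17 (AT2G22420), a peroxidase of lignifying tissue controlled by the transcription factor AGL15, had 10.5, 8.38 and 10.1 CPM after ethylene and 9.18, 8.44 and 7.47 CPM after air. Its groups overlapped, with a log2 fold change of 0.21 ± 0.17 that did not pass (edgeR adjusted p = 0.39). PRX52 and PRX47 had too few counts to test. PRX52 (AT5G05340), known from the lignin of interfascicular fibres, had 7, 7 and 10 counts in ethylene libraries and 1, 1 and 4 in air libraries. PRX47 (AT4G33420), known from vessel lignin, had 5, 1 and 5 counts in ethylene libraries and 2, 1 and 2 in air libraries. The PRX47 level is uncertain, because the counting of reads shared by its own transcripts is not known.

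Members that build the lignin of the Casparian strip, the ring that seals the root endodermis, did not pass the test with all libraries. PRX3 (AT1G05260, also named RCI3 for its induction by cold) had 128, 113 and 112 CPM in ethylene libraries, against 91.2, 114 and 53.8 CPM in air libraries. Air replicate 2 lay among the ethylene libraries, and the log2 fold change was 0.45 ± 0.21 (edgeR adjusted p = 0.13). PRX9 (AT1G44970), which also acts in anthers, had 10.3, 13.6 and 9.31 CPM after ethylene and 9.59, 12.9 and 3.96 CPM after air. PRX39 (AT4G11290) had 43.8, 39.5 and 40.3 CPM after ethylene and 33.3, 50.1 and 21.8 CPM after air. For both, air replicate 3 stood well under all other libraries, and without it the log2 fold changes were -0.029 for PRX9 and -0.029 for PRX39, against 0.33 ± 0.34 and 0.23 ± 0.23 with all libraries. Without air replicate 2, PRX39 passed at 0.56 (edgeR adjusted p = 0.028) and PRX3 at 0.68 (edgeR adjusted p = 0.019). Under spike-in scaling PRX3, PRX9 and PRX39 all passed. PRX64 and PRX72, the partners of these 3 in the Casparian strip and outside the 60, had log2 fold changes of 0.73 ± 0.25 (edgeR adjusted p = 0.051) and 0.34 ± 0.17 (edgeR adjusted p = 0.16). PRX64 lay at the threshold. With all libraries it passed in every other setting, such as DESeq2 (adjusted p = 0.011), except 1 transcript per locus (edgeR adjusted p = 0.053). Of the fits that left out a library, PRX64 passed only in the one without air replicate 2 (edgeR adjusted p = 0.0029). PRX72 passed with the replicate block (edgeR adjusted p = 0.046), under spike-in scaling and without air replicate 2 (edgeR adjusted p = 0.019), and in no other setting.

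PRX39, PRX40 and PRX57 are known as genes that the transcription factor UPBEAT1 represses in the root, where it sets the transition from division to elongation. UPBEAT1 itself had 6.07, 3.87 and 4.38 CPM in ethylene libraries, against 18.8, 15.2 and 20.9 CPM in air libraries. It fell by 1.94 on the log2 scale (SE 0.20; edgeR adjusted p = 0.00011), with no overlap between the groups. PRX40 (AT4G16270), which with PRX9 cross-links extensins in the anther tapetum, had 5.10, 6.91 and 4.27 CPM after ethylene and 3.52, 3.69 and 1.07 CPM after air. All its ethylene libraries were above its air libraries, but the log2 fold change of 0.97 ± 0.39 did not pass (edgeR adjusted p = 0.079). PRX57 (AT5G17820) had 9 counts in the 3 ethylene libraries together and 5 in the 3 air libraries, too few to test. The PRX57 level is likewise uncertain, because the counting of reads shared by its own transcripts is not known. None of the 3 was past the test in the fit used throughout. PRX40 passed with DESeq2 (adjusted p = 0.041), with no filter on low counts (edgeR adjusted p = 0.042) and with the replicate block (edgeR adjusted p = 0.028). It also passed under spike-in scaling, but in no fit that left out a library. PRX39 passed under spike-in scaling and without air replicate 2.

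Among peroxidases of the oxidative burst and of immunity PRX34 and PRX4 rose, PRX33 did not pass and PRX5 fell. PRX33 (AT3G49110) and PRX34 (AT3G49120) are closely related genes, with another annotated gene between them, that supply much of the hydrogen peroxide released when leaf cells meet pathogen molecules. PRX34 had 351, 388 and 306 CPM in ethylene libraries, against 233, 229 and 201 CPM in air libraries. The groups were well apart, and its log2 fold change was 0.65 ± 0.10 (edgeR adjusted p = 0.00099). PRX33 had 11.0, 14.9 and 13.6 CPM after ethylene and 13.3, 9.99 and 7.55 CPM after air. Its groups overlapped, and its log2 fold change of 0.35 ± 0.21 did not pass (edgeR adjusted p = 0.24). Of the 50-base stretches of the PRX34 transcript 6.72% also occur in PRX33, and 6.53% of those of PRX33 occur in PRX34. PRX34 is far more abundant, so the PRX33 level is uncertain. Per kilobase of coding length, PRX34 averaged 328 CPM after ethylene and 208 after air, while PRX33 averaged 12.3 after ethylene and 9.66 after air.

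PRX4 (AT1G14540), used as a marker of immunity triggered by microbial patterns, had 20.3, 17.2 and 18.3 CPM in ethylene libraries and 12.4, 11.5 and 13.9 CPM in air libraries. The groups did not overlap, air replicate 3 was the highest of its group, and the log2 fold change was 0.56 ± 0.14. Its neighbour PRX5 (AT1G14550) went the other way, with 1.61, 1.23 and 2.16 CPM in ethylene libraries and 2.07, 3.77 and 6.56 CPM in air libraries. PRX5 fell by 1.29 on the log2 scale (SE 0.41; edgeR adjusted p = 0.036). Its groups overlapped, since air replicate 1 lay under ethylene replicate 3, and the call was lost without ethylene replicate 1, ethylene replicate 2 or air replicate 3.

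Peroxidases linked to seeds and growth gave further rises. PRX16 (AT2G18980), known from seed germination, had 121, 98.5 and 84.9 CPM in ethylene libraries, against 46.7, 62.8 and 21.8 CPM in air libraries. All 3 ethylene libraries were higher than every air library, and the log2 fold change was 1.22 ± 0.29. PRX37 (AT4G08770), which makes dwarf plants when overexpressed, had 21.8, 25.7 and 17.1 CPM after ethylene and 10.3, 15.3 and 7.78 CPM after air. Its neighbour PRX38 (AT4G08780) had 6.39, 7.38 and 7.15 CPM after ethylene and 2.76, 3.93 and 3.05 CPM after air. Both of this pair rose without overlap, PRX37 by a log2 fold change of 0.95 ± 0.24 and PRX38 by 1.11 ± 0.21. PRX37 lost its call without ethylene replicate 2 (edgeR adjusted p = 0.055), and PRX38 kept its call in all 14 other settings. Between them, 7.78% of the 50-base stretches of the PRX37 transcript and 9.31% of those of PRX38 occur in the partner. How reads from such stretches were counted is not known, and the level of the scarcer PRX38 is the less certain of the pair. PRX53 (AT5G06720), known from hypocotyl elongation, had 2.19, 1.11 and 2.60 CPM after ethylene and 2.48, 1.39 and 2.52 CPM after air, and its groups overlapped fully. PRX36 (AT3G50990), which loosens the seed coat for the release of mucilage, had 4 counts in the 3 ethylene libraries together and 2 in the 3 air libraries.

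Among root hair peroxidases, PRX1 and PRX44 had too few counts to test, while PRX60 was tested and did not pass. PRX1 (AT1G05240) and PRX44 (AT4G26010), which with PRX73 cross-link extensins in growing hairs, had 10 and 3 counts over the 3 ethylene libraries and 6 and 4 counts over the 3 air libraries. PRX2 (AT1G05250), which shares its sequence with PRX1 and acts in stem lignin with PRX25, had 4 counts after ethylene and 5 after air. The levels of PRX1, PRX2 and PRX44 are uncertain. How reads shared by PRX1 and PRX2, or by the transcripts of PRX44, were counted is not known. PRX60 (AT5G22410, also named RHS18 as a root hair specific gene) had 5.23, 5.04 and 2.83 CPM in ethylene libraries and 5.93, 4.51 and 2.74 CPM in air libraries. Its group means of 4.36 ± 1.33 CPM after ethylene and 4.39 ± 1.60 CPM after air (SD, n = 3 each) lay well within the spread, with an edgeR adjusted p of 0.97. PRX73, outside the 60, had 24.8, 22.1 and 14.7 CPM after ethylene and 20.4, 18.6 and 6.86 CPM after air, and did not pass.

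The other large rises were in members for which no role is given here. PRX24 (AT2G39040) had 10.1, 7.73 and 5.82 CPM in ethylene libraries and 2.14, 4.42 and 1.14 CPM in air libraries, a log2 fold change of 1.62 ± 0.40. PRX15 (AT2G18150) had 20.1, 19.3 and 19.0 CPM in ethylene libraries and 7.73, 10.5 and 4.12 CPM in air libraries, a log2 fold change of 1.39 ± 0.26. The PRX15 values were close together after ethylene and spread after air. PRX35 (AT3G49960) had 13.6, 10.4 and 6.37 CPM after ethylene and 5.17, 3.85 and 3.58 CPM after air, a log2 fold change of 1.25 ± 0.28. PRX45 (AT4G30170) had 137, 111 and 106 CPM after ethylene and 53.1, 80.9 and 24.8 CPM after air, a log2 fold change of 1.16 ± 0.31. In PRX45, as in PRX24, PRX15 and PRX35, no air library reached the lowest ethylene library, and air replicate 3 was the lowest of the 6. PRX26 (AT2G43480) had 4.71, 5.62 and 3.99 CPM after ethylene and 1.86, 3.44 and 1.52 CPM after air, a log2 fold change of 1.08 ± 0.32. PRX56 (AT5G15180) had 12.3, 12.9 and 8.70 CPM after ethylene and 6.90, 7.95 and 2.67 CPM after air, with a log2 fold change of 0.95 and an SE of 0.33 (edgeR adjusted p = 0.049). PRX26 and PRX56 each lost their call without ethylene replicate 1, ethylene replicate 2, air replicate 1 or air replicate 3. PRX45 lost it without ethylene replicate 1 or air replicate 1.

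Smaller rises were measured in PRX11, PRX23, PRX30 and PRX50. PRX11 (AT1G68850) averaged 18.9 ± 2.84 CPM after ethylene and 10.7 ± 2.69 CPM after air (SD, n = 3 each), and its log2 fold change of 0.82 ± 0.20 was kept in all 14 other settings. PRX23 (AT2G38390) averaged 32.3 ± 3.08 CPM after ethylene and 19.1 ± 7.08 CPM after air, a log2 fold change of 0.76 ± 0.24 whose call was lost without any 1 of the ethylene libraries. Its neighbour PRX22 (AT2G38380) had 115, 117 and 92.2 CPM in ethylene libraries and 103, 117 and 51.5 CPM in air libraries, which overlapped and did not pass. PRX30 (AT3G21770) rose by 0.45 ± 0.16, a call kept in 1 of the 6 fits that left out a library, the one without air replicate 2. PRX50 (AT4G37520) averaged 47.3 ± 1.33 CPM after ethylene and 37.8 ± 2.40 CPM after air, a log2 fold change of 0.32 ± 0.09. Its neighbour PRX51 (AT4G37530), with 9.62 ± 1.62 CPM after ethylene and 10.6 ± 2.09 CPM after air, did not pass. PRX50 lost its call without ethylene replicate 1, ethylene replicate 2, air replicate 1 or air replicate 3.

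**Figure D2:**
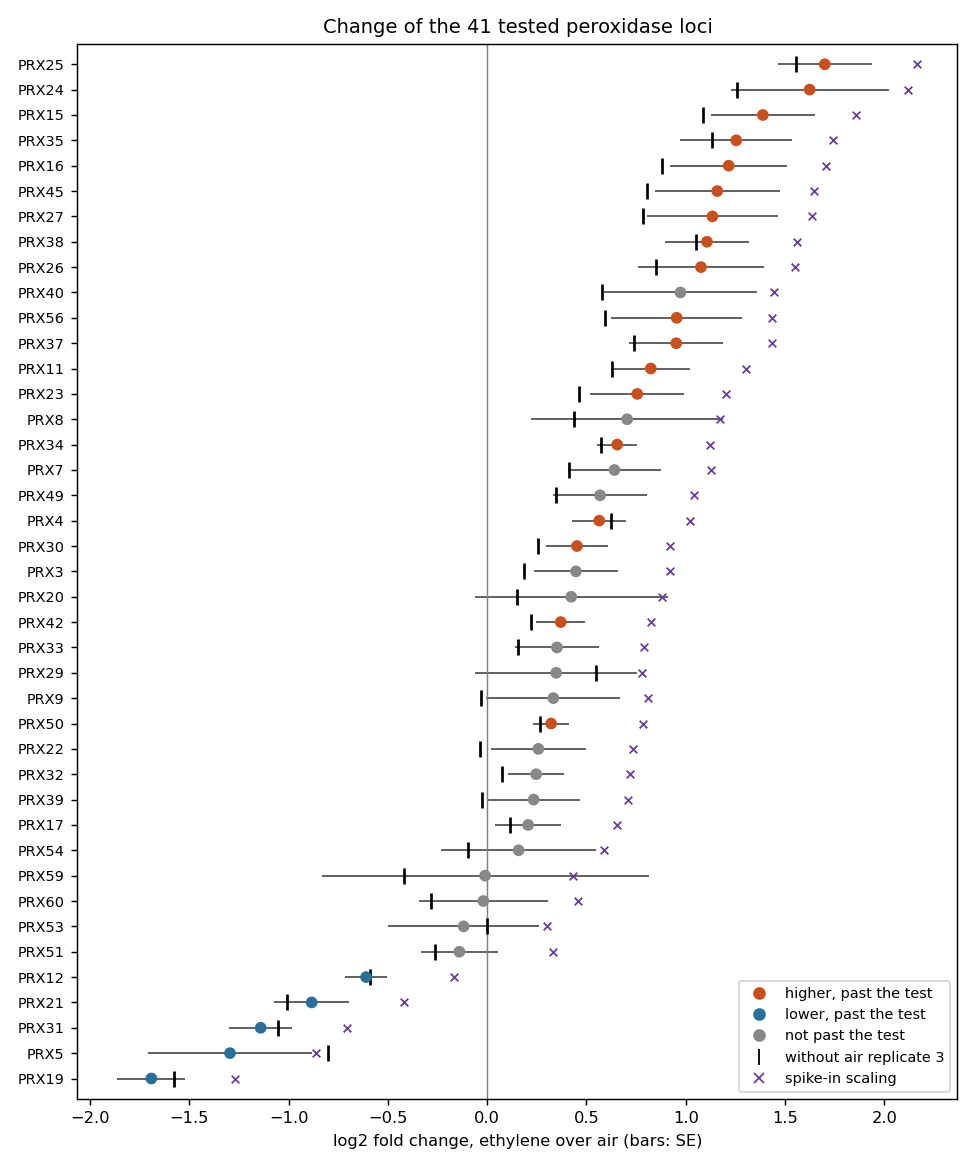
Log2 fold change, ethylene over air, of the 41 tested peroxidase loci, with bars for the SE. Ticks give the value without air replicate 3, which among the 18 loci that were higher lies left of the point in all but PRX4, and crosses give the value under spike-in scaling, where PRX12 and PRX21 no longer passed.

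Besides PRX5, 4 more members fell, and all had higher counts than PRX5. PRX19 (AT2G34060) had 13.9, 18.6 and 21.8 CPM in ethylene libraries, against 57.5, 49.6 and 68.5 CPM in air libraries. No ethylene library came near an air library, and the locus fell by 1.69 on the log2 scale (SE 0.17; edgeR adjusted p = 9.2e-05), the smallest p of the 41. PRX31 had 63.1, 101 and 94.3 CPM in ethylene libraries and 177, 177 and 215 CPM in air libraries, and fell by 1.14 (SE 0.16). PRX21 (AT2G37130) had 30.1, 48.8 and 29.2 CPM in ethylene libraries and 70.1, 73.6 and 56.0 CPM in air libraries, and fell by 0.88 (SE 0.19). The level of PRX21 is uncertain, because the counting of reads shared by its own transcripts is not known. PRX12 had 177, 233 and 222 CPM in ethylene libraries and 327, 300.1 and 336 CPM in air libraries, and fell by 0.61 (SE 0.11). In each of these 4 the groups were apart, and the call was kept in all 6 fits that left out a library. Under spike-in scaling PRX19 (-1.27), PRX31 (-0.70) and PRX5 (-0.86) were still past the test, while PRX21 (-0.42) and PRX12 (-0.17) were not.

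The other tested members that did not pass were mostly scarce. PRX7 (AT1G30870) was nearest to the threshold, with 55.0, 46.0 and 31.6 CPM in ethylene libraries, against 35.3, 30.5 and 19.2 CPM in air libraries, and a log2 fold change of 0.64 with an SE of 0.23 (edgeR adjusted p = 0.060). Its groups overlapped, since air replicate 1 was above ethylene replicate 3. PRX49 (AT4G36430) had 18.5, 19.7 and 18.2 CPM after ethylene and 10.8, 18.7 and 8.69 CPM after air. Air replicate 2 alone reached its ethylene libraries. PRX8, PRX20, PRX29, PRX54 and PRX59 had log2 fold changes between -0.01 and 0.70 with SEs between 0.39 and 0.82.

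The 19 untested loci had between 0 and 60 counts summed over the 6 libraries. PRX6 (AT1G24110) and PRX13 (AT1G77100) had 0 counts in every library, which allows a level of up to 0.175 to 0.233 CPM per library. These limits cover counting error only and are scaled to plant counts without TMM factors. Just under the filter on low counts were PRX10 (AT1G49570), with 26, 16 and 8 counts in ethylene libraries and 1, 6 and 3 in air libraries, and PRX55 (AT5G14130), with 27, 8 and 9 in ethylene libraries and 1, 4 and 0 in air libraries. Scaled to library size, the ethylene libraries of PRX55 were all above its air libraries, while for PRX10 air replicate 2 (0.492 CPM) was above ethylene replicate 3 (0.443 CPM). With no filter PRX55 passed the test (edgeR adjusted p = 0.032) and PRX10 did not (edgeR adjusted p = 0.057). PRX10 met the filter in some fits that left out a library. It passed without ethylene replicate 3 (edgeR adjusted p = 0.035) or air replicate 2 (0.039), but not without air replicate 1 (0.19) or air replicate 3 (0.13). PRX43 (AT4G25980) had 13, 17 and 7 counts after ethylene and 4, 6 and 7 after air. PRX58 (AT5G19880) had more counts after air, 2 over the 3 ethylene libraries and 12 over the 3 air libraries. PRX14, PRX18, PRX28, PRX41, PRX46 and PRX48 had between 3 and 26 counts in all. Just inside the filter were PRX59 with 59 counts, PRX29 with 81 and PRX8 with 91.

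The annotation holds more than 1 transcript for some of these loci. The 60 loci had 71 transcript identifiers, 49 loci with 1 and 11 loci with 2. Of the loci with 1 identifier 36 were tested, and of those with 2 identifiers 5 were tested. In each of the 11 loci with 2 identifiers, less than 50% of the 50-base stretches of either transcript occur in no other annotated transcript (RefSeq TAIR10.1), because the 2 transcripts overlap. PRX44, for example, has a shorter transcript that lies wholly within the longer one, and that shorter transcript had 0 counts in all 6 libraries. PRX57 has 3.13% of such unique stretches, PRX47 has 7.02% and PRX55 has 14.5%, and none of the 3 was tested. The tested loci with 2 identifiers were PRX20, PRX21, PRX29, PRX50 and PRX51. PRX2 shares all of its stretches with PRX1, and PRX1 shares 59.4% of its own with PRX2. How shared reads were counted is not given in the sources used here, and the part of shared sequence in the low counts was not tested. Counted by locus, between 93.7% (PRX50) and 100% of the stretches of the 11 loci with 2 identifiers occur in no other locus. Their overlap thus lies almost wholly between their own transcripts, unlike that of PRX1 and PRX2. Levels of these 13 loci are uncertain, for the 11 because the counting of reads shared by their own transcripts is not known. At least 90% of the stretches were unique in the other 47 loci, and 11 of those were still too low to test.

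**Figure D3:**
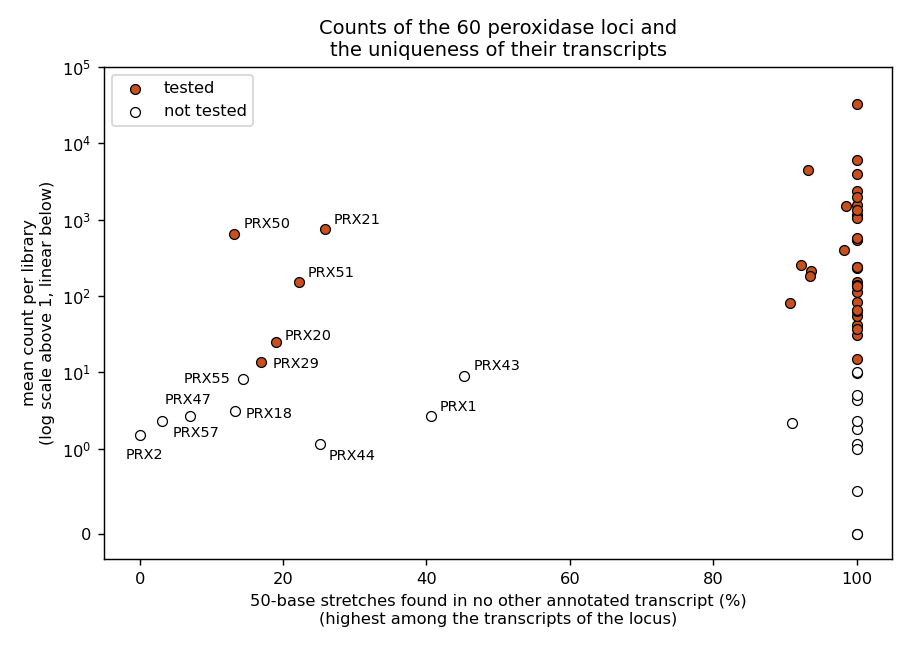
Mean count per library of each of the 60 peroxidase loci (log scale above 1, linear below) against the percentage of 50-base stretches found in no other annotated transcript. Filled points were tested and open points were not, and 8 of the 13 loci under 50% were not tested.

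Neighbouring genes were compared because recent duplicates lie side by side. The 60 loci hold 9 pairs of direct neighbours, and in 5 of these both genes were tested. Only PRX37 and PRX38 both rose, PRX4 and PRX5 passed in opposite directions, and in the pairs PRX22 with PRX23 and PRX50 with PRX51 a single gene passed. PRX53 and PRX54 averaged under 3 CPM in both groups and neither passed. In the remaining 4 pairs at least 1 gene was too low to test, including PRX14, with 10 counts over the 3 ethylene libraries and 3 over the 3 air libraries, beside PRX15.

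Air replicate 3 stood apart in the tested peroxidases. It was the lowest of all 6 libraries in 30 of the 41 tested members (73.2%), against 29.2% of all tested loci, and in 16 of the 18 members that were higher. The median log2 ratio of air replicate 3 to the mean of the other air libraries was -0.62 over the tested members and -0.01 over all tested loci. It was -0.63 over the members that were higher and 0.28 over the 5 that were lower. Air replicate 3 was the highest air library in PRX5, PRX12, PRX19 and PRX31, which fell. It was also the highest in PRX4, which rose, and in PRX29 and PRX53, which did not pass. Without air replicate 3, 13 members were higher and 4 lower, and 17 of the 23 calls were kept. The calls lost were PRX5, PRX26, PRX30, PRX42, PRX50 and PRX56. Without ethylene replicate 1, and likewise without ethylene replicate 2, 10 members were higher and 4 lower, and without air replicate 1, 12 were higher and 5 lower. Members tested were 43 without ethylene replicate 3 or any 1 air library. These fits hold fewer libraries, and the share of all tested loci that they call is not given here. A loss of calls particular to the peroxidases therefore cannot be told apart from a general one. Over all 6 such fits 13 members kept their call, 9 that rose (PRX4, PRX11, PRX15, PRX16, PRX24, PRX25, PRX34, PRX35 and PRX38) and 4 that fell (PRX12, PRX19, PRX21 and PRX31). The same 9 rises, with the falls of PRX19 and PRX31, were kept in all 14 other settings.

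**Figure D4:**
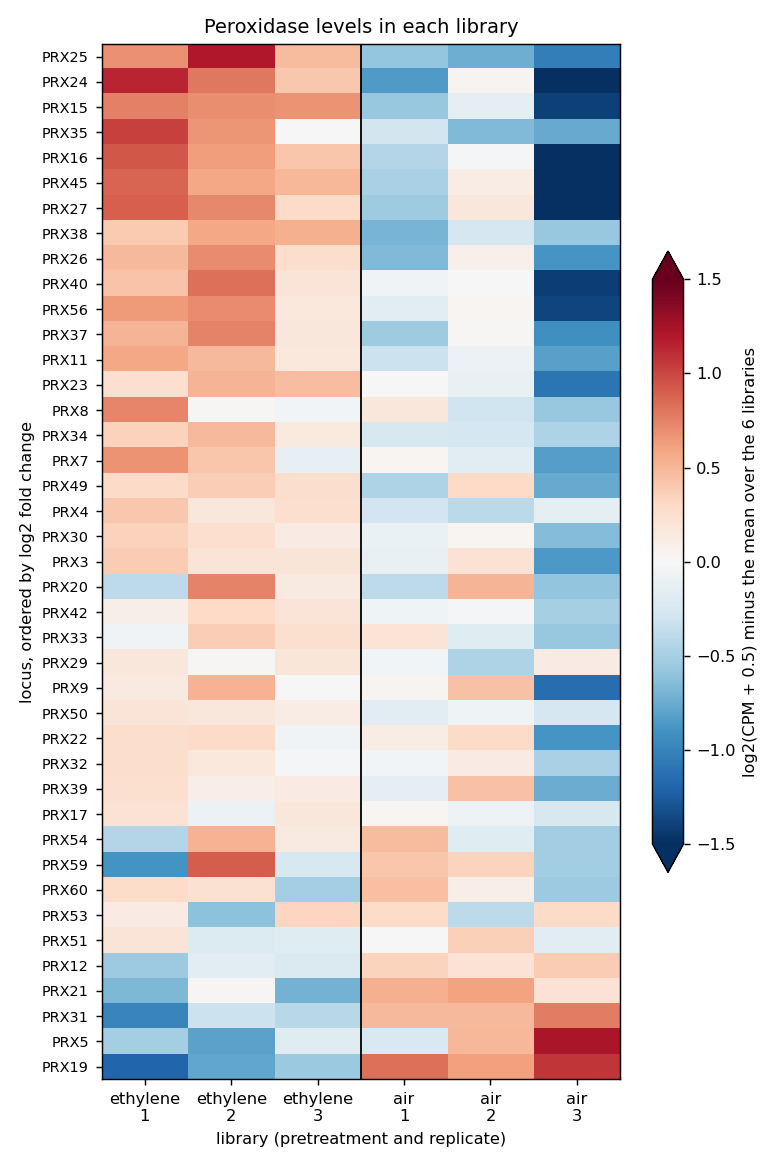
Level of the 41 tested peroxidase loci in each library, as log2(CPM + 0.5) minus the mean over the 6 libraries, ordered by log2 fold change. Air replicate 3 is the lowest library in 30 of the 41 loci, and the lowest 5 loci in the plot are those that fell.

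Root and xylem markers rose in part beside the peroxidases, while most endodermis, root hair, leaf and stomatal markers did not pass. The part of these tissues in the peroxidase result was not tested. All 8 root markers had counts, 6 were tested and 4 rose. Their summed level was 5345 to 6374 CPM in ethylene libraries and 4730 to 6302 CPM in air libraries. There, 4730 CPM is air replicate 3, while the other air libraries, at 6290 and 6302 CPM, lay within the ethylene range. Most of that sum was PYK10, a root and hypocotyl beta-glucosidase, which had a log2 fold change of 0.02 ± 0.12. The aquaporin TIP2;3 of roots rose by a log2 fold change of 1.56 ± 0.23 and the stem cell regulators PLT2 and PLT1 of the root tip by 1.32 ± 0.30 and 1.07 ± 0.31. Of the 5 xylem markers 4 rose, with a summed level of 133 to 173 CPM after ethylene and 65.6 to 83.5 CPM after air. Among them were the secondary wall cellulose synthases IRX3 (log2 fold change 1.05 ± 0.12) and IRX1 (1.05 ± 0.14) and the vessel protease XCP2 (1.05 ± 0.15). The 7 endodermis markers summed to 109 to 120 CPM in ethylene libraries and 42.0 to 99.6 CPM in air libraries, where 42.0 is air replicate 3. Only CASP2, a scaffold protein of the Casparian strip, passed among them, with a log2 fold change of 0.85 ± 0.23, while CASP1 had 0.75 ± 0.26 (edgeR adjusted p = 0.051). The 8 root hair markers summed to 80.9 to 106 CPM after ethylene and 39.0 to 92.1 CPM after air, again with air replicate 3 lowest, and RHD6, a regulator of hair initiation, passed alone with 1.16 ± 0.23. The most abundant of them, the wall protein gene PRP3, had 24.1 ± 4.50 CPM after ethylene and 19.5 ± 5.41 CPM after air (SD, n = 3 each). Of the 5 leaf markers, which summed to 32599 to 35619 CPM in ethylene libraries and 43602 to 46043 CPM in air libraries, CAB1 fell by 0.65 (SE 0.07) and the others did not pass. Under spike-in scaling CAB1 did not pass (-0.19), and 6 root, 5 xylem, 6 endodermis and 6 root hair markers were higher. So were 1 leaf marker and 2 stomatal markers, and 40.0% of all tested loci were higher under that scaling. With TMM none of the 4 stomatal markers passed. The receptor gene TOO MANY MOUTHS averaged 28.8 ± 1.78 CPM after ethylene and 27.8 ± 1.19 CPM after air. No marker of these lists was at 0 in all libraries.

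The remaining family members and the enzymes that work beside peroxidases were set next to the 60 loci. PRX61 to PRX73 had 12 of 13 loci tested, 5 higher and 1 lower, with a median log2 fold change of 0.61. PRX62 alone fell, to 4.13, 9.14 and 12.2 CPM in ethylene libraries, against 41.7, 37.2 and 66.6 CPM in air libraries. The largest rise was PRX65, with 3.10, 3.40 and 2.88 CPM in ethylene libraries and 0.345, 0.246 and 0.00 CPM in air libraries. PRX65 had 5, 3 and 0 counts in air libraries and met the minimum count through its ethylene libraries alone, so the size of its rise is uncertain. PRX63 rose by 0.56 ± 0.14, and PRX71, the most abundant of the 13, had 0.32 ± 0.13 and did not pass. The NADPH oxidases, which make the superoxide that is turned into hydrogen peroxide in the wall, had 7 of 10 tested, 5 higher and 0 lower, with a median of 0.98. RBOHD, the oxidase of the immune burst, rose by 0.61 ± 0.11, RBOHF, which acts with it, by 0.91 ± 0.17 and RBOHC, the oxidase of root hair growth, by 1.27 ± 0.27, while RBOHH had 0 counts. Laccases, copper enzymes that also polymerise lignin, had 14 of 17 tested, 7 higher and 1 lower, with a median of 0.79. LAC4 of xylem walls rose by 1.13 ± 0.14, LAC5 by 0.81 ± 0.17, and LAC8 fell by 0.58 (SE 0.08), a call lost under spike-in scaling at -0.13. Genes of monolignol synthesis, which make the substrates, had 13 of 15 tested, 2 higher and 3 lower, with a median of -0.01. PAL1, at the entry of the pathway, rose by 0.45 ± 0.12, while COMT1 and F5H1, both needed for syringyl lignin, fell by 0.80 (SE 0.08) and 0.52 (SE 0.08). Under spike-in scaling 6 monolignol genes were higher and 0 lower, with a median of 0.45, and PRX61 to PRX73 had 11 higher and 1 lower, with a median of 1.07. The NADPH oxidases then had 7 higher and 0 lower, and the laccases 9 higher and 0 lower.

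**Figure D5:**
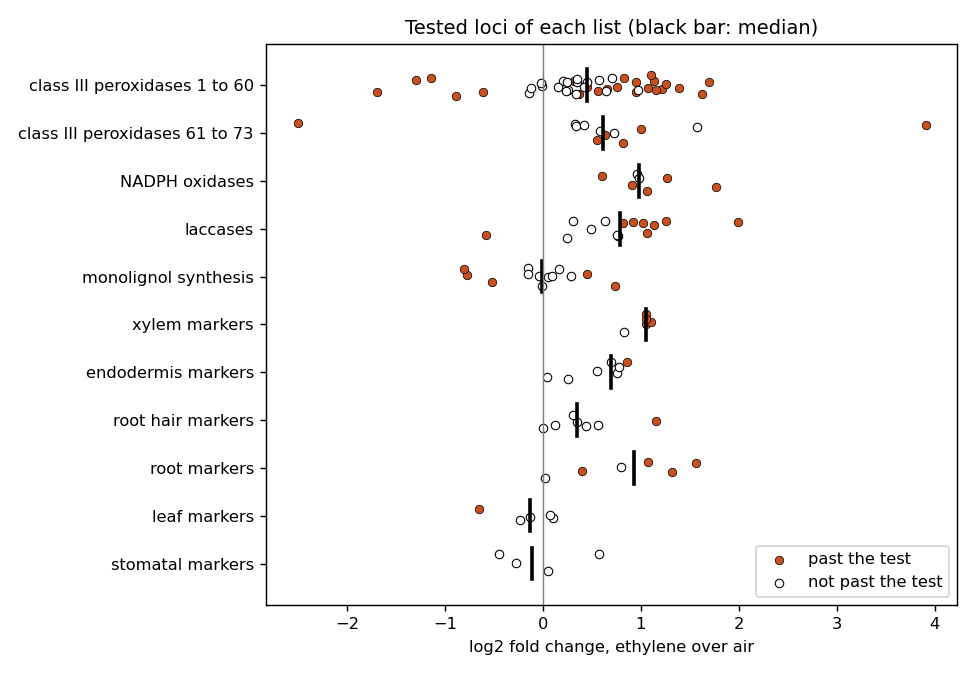
Log2 fold change, ethylene over air, of the tested loci of the 60 peroxidases and 10 other lists, with filled points past the test and a black bar at each median. Medians lie at 0.45 for the 60 peroxidases, 0.98 for NADPH oxidases, 0.79 for laccases and -0.01 for monolignol synthesis.

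The authors' deposited table of fold changes per transcript holds 41 transcripts of 40 of these loci. At an adjusted p under 0.05 in the authors' deposited table, 18 of those transcripts were higher and 5 lower, and no fold change had the opposite sign to that of its locus here. The call was the same for 36 of the 41 transcripts. In the authors' deposited table PRX7 (adjusted p = 0.0160) and PRX40 (0.0397) were past 0.05 and PRX27 (0.0592) and PRX45 (0.0508) were not. The scarcer of the 2 PRX21 transcripts was likewise not past 0.05 in the authors' deposited table.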

How the data were processed

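For each of the 6 libraries the authors deposited raw read counts per transcript. The authors deposited, per the file headers, log2 fold changes and p-values per transcript as well. Left unused were 12 columns of per-sample values in those tables. There, the column headed as air replicate 1 carries the values of the separate file of air replicate 3, and the reverse, and replicate names here follow the separate files. For aligner, counting program, genome build and strand use nothing is given in the sources used here. Counts of 54013 transcripts were summed to 32833 loci, and 92 spike-in RNAs were kept out. Total counts were 13163499 to 17462603 per library.

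The test was edgeR 4.0.16's quasi-likelihood F-test (R 4.3.3) with TMM factors, a minimum count of 10 and minimum total of 15 (filterByExpr), group alone in the design, and Benjamini-Hochberg adjustment over 17887 loci, called at 0.05. SEs were derived from the fold change and its F statistic. DESeq2 1.42.0 was an alternative, with other scalings and filters, 1 transcript per locus, a replicate block and leaving out each library. The steps were tested on simulated counts. Uniqueness was counted over 50-base stretches of RefSeq TAIR10.1 transcripts, which held 98.5% of the identifiers, and coding lengths come from the same annotation.

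Values per library are given for the 10 largest rises and falls among called members, the 6 highest per coding kilobase, members with a described role and their neighbours, and from other lists up to 3 called genes with the smallest p and the most abundant one. PRX64, PRX72 and PRX73 were added for their known roles and RBOHH because it was at 0, with their values already seen. Members and lists were chosen with earlier results of these data known. The labels name no batch or day shared by same-numbered libraries, so the numbers were not taken as pairs in the fit used throughout. Deviations of same-numbered libraries from their group means had correlations of 0.02, -0.06 and 0.12. With 3 libraries per group these values cannot show that pairing was absent. Nothing says that replicates came from separate cultures, and the p-values reflect variation among these libraries alone, part of which may be technical. Every replicate pair differed by more than sampling noise (chi-square per degree of freedom 5.34 to 29.0).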

Additional observations from a re-analysis of the deposited data

How the results depend on the processing

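Against 18 members higher and 5 lower, spike-in scaling gave 28 and 3, and 7160 and 829 of all tested loci against 2828 and 3007. Leaving out 1 library at a time gave 10 to 22 members higher and 4 to 5 lower, with no share over all tested loci to set beside them. Counts stayed within 1.5 times in the other settings. They were 18 and 5 under RLE factors, 19 and 5 under upper-quartile factors, and 19 and 5 with DESeq2 (without PRX27 and with PRX7 and PRX40). With no filter on low counts they were 21 and 5 of 58 members tested. At a mean of at least 5 CPM they were 17 and 4 of 31, with PRX5 and PRX26 not tested. With 1 transcript per locus they were 14 and 4 of 36, with PRX21 and PRX50 not tested. For these settings and the replicate block, the share of all tested loci called is not given here. With the replicate number as a block, 21 were higher and 5 lower, all 23 calls held, and PRX7, PRX40 and PRX49 were added. No member past the test changed direction in any setting. Among those not past it, the log2 fold change turned under spike-in scaling in PRX51 (0.33), PRX53 (0.30), PRX59 (0.43) and PRX60 (0.46), under upper-quartile factors in PRX59 (0.019) and PRX60 (0.0024), and with the replicate block in PRX60 (0.0016). Leaving out 1 library turned PRX9 (-0.029 to 0.68), PRX20 (-0.020 to 0.98), PRX22 (-0.038 to 0.46), PRX39 (-0.029 to 0.56), PRX51 (-0.29 to 0.0033), PRX53 (-0.38 to 0.17), PRX54 (-0.15 to 0.56), PRX59 (-1.44 to 0.49) and PRX60 (-0.28 to 0.25). The cause of these moves was not tested. At this depth 19 loci had too few counts to test, and the part of shared sequence in that was not tested.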
